A study of Rattus norvegicus with 8 samples.

Results

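The genes described here are 10 components of the classical and alternative pathways of complement: C1qa, C1qb, C1qc, C1r, C1s, C2, C3, C4a, Cfb and Serping1. They were chosen by name, as the array design gives it, and are 10 of the 26334 gene names on the array, read by 11 of its 30367 probes and 20 of its 42877 spots. The samples were retinas of female Lister Hooded rats, 8 weeks old, taken 14 days after surgery on the right optic nerve. In the ONC group the nerve was crushed with forceps, 3 mm behind the disc and for 10 s, and in the sham-operated CTR group the forceps were put in place but not closed. There were 4 retinas per group, each profiled on its own, and 4 two-color arrays, so that each array held 2 retinas in 2 dye channels.

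By the sample labels, the red channel (Cy5) of each array held a CTR retina and the green channel (Cy3) the equally numbered ONC retina. The methods of the study pair retinas of the same group on an array instead, and give some retinas the other dye. The 2 sources give the same dye only for CTR2, CTR4, ONC1 and ONC3. The labels tie each retina to a channel of a given deposited array and were followed throughout. CTR and ONC below are thus names of labeled channels, and dye and condition cannot be told apart.

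Complement is a cascade of plasma and tissue proteins that tags cells and debris for removal. In the classical pathway C1q binds its target, the proteases C1r and C1s are switched on and cleave C4 and C2, and the resulting enzyme cleaves C3. In the alternative pathway C3 and factor B, the product of Cfb, form an amplifying enzyme, and C1 inhibitor, the product of Serping1, blocks C1r and C1s. In nervous tissue C1q is made largely by microglia, C3 and C4 by glia as well, and C1q and C3 take part in the removal of synapses.

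The labels were checked first against markers of retinal ganglion cells (RGCs), whose axons form the optic nerve. Of 17 RGC markers that the study names, 16 could be measured in all channels, and their median level, relative to each gene's average channel, was -0.97 in CTR1, -0.81 in CTR3, -0.57 in CTR4 and -0.99 in ONC4 on the log2 scale. It was 0.72 in CTR2, 0.82 in ONC1, 0.91 in ONC2 and 0.88 in ONC3. The markers were thus low in 3 of 4 channels labeled CTR and high in 3 of 4 labeled ONC, which goes against the labels for a crushed nerve. Summed, they gave 4.14, 5.77, 4.27 and 4.45 in the CTR channels of arrays 1 to 4 and 6.03, 6.05, 6.08 and 4.37 in their ONC channels (log2 of the summed linear levels). Between labels, 16 of 16 were higher in ONC, the median log2 difference being 0.85; Ywhah, the brightest, had 0.58 (SE 0.31), and Nrn1 did not pass the filter. The study itself reports these RGC markers lower after the crush on its arrays, and fewer RGCs by cell counts. By PCR in a new set of animals it reports RGC markers lower and C3 higher. No channel was moved to another group, and each direction below is one between labels.

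The median foreground was 468, 626, 447 and 468 units in the CTR channels of arrays 1 to 4 and 337, 495, 332 and 218 in their ONC channels, and the share of spots well above background ran from 66.8% in ONC4 to 79.4% in CTR1. All 10 genes had a signal well above background in all 8 channels and passed the filter on dim and uneven spots, as did 16307 of the 26334 names. The lowest ratio of foreground to background was 6.45, for C1qc in ONC4, and the highest was 766, for Serping1 in CTR4. Levels are given as the log2 of the background-subtracted and normalized intensity less the median of the channel's spots that passed the filter. A value of 0 is thus the brightness of a typical spot among those that passed. Levels of different probes are not comparable with each other.

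The probes lie in 3 groups of neighbors, and the first 30 bases of a probe from each group, with those of Serping1 and C3, show what was measured. C1qb, C1qc and C1qa were read within 15108 bases of chromosome 5, and C1r and C1s within 8155 bases of chromosome 4. C2, Cfb and C4a were read on chromosome 20, with 6179 bases between the probes of C2 and Cfb and 238013 between those of Cfb and C4a. In the coordinates of the array files (build rn4), the 60-base probe of C1qa is at chr5:155662578-155662637 on the minus strand, that of C1s at chr4:160736725-160736784 on the minus strand, that of C4a at chr20:4315816-4315875 on the plus strand and that of Serping1 at chr3:67968812-67968871 on the minus strand. That of C3 is on sequence not placed on a chromosome in this build.
C1qa: ccagcaaagggccgcatttaccagggtact
C1s: aaaggtaaagaactacgtggactggatcct
C4a: ggtcagggcctctcacgatgcagggcctgc
C3: gccacgtcaagtgcagaaacgccctaaagc
Serping1: cactgttttgcagcttttatggttcaagct
By their transcript accessions, all 10 genes kept the same symbol in the RefSeq table of build GRCr8. C4a has a near-identical neighbor, C4b, which the array does not name, so the value of the C4a probe may include C4b and is uncertain.

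The promoters of C1qa, C1qb, C1r, C3 and C4a were in the RefSeq promoter table; C1qc, C1s, C2, Cfb and Serping1 were not. The mean levels of these genes were lower in channels labeled ONC, none passing limma without the block, and the promoters with a motif match are shown. In the 250 bases before the start of each gene, both strands were searched for a STAT motif (TTCNNNGAA), an interferon regulatory factor motif (GAAANNGAA), a C/EBP motif (TTGCNNAA), an ETS motif (GAGGAAG) and the NF-kB motif. The matches, in capitals, did not overlap: a STAT match in C1qa, an NF-kB match in C1qb, and a C/EBP match in each of C1r and C3, those of C1qb and C1r being on the opposite strand.
C1qa, chr5:154419934-154420183 (GRCr8, minus strand): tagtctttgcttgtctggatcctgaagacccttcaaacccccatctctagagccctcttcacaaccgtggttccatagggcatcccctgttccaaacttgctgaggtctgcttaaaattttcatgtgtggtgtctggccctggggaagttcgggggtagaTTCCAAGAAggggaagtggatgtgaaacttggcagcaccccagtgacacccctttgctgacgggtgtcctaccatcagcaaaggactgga
C1qb, chr5:154407828-154408077 (GRCr8, minus strand): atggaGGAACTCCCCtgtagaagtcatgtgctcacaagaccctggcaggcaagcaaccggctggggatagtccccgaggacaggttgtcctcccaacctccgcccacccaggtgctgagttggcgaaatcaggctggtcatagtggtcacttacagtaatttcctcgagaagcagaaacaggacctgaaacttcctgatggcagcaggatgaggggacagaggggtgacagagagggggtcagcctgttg
C1r, chr4:159098763-159099012 (GRCr8, plus strand): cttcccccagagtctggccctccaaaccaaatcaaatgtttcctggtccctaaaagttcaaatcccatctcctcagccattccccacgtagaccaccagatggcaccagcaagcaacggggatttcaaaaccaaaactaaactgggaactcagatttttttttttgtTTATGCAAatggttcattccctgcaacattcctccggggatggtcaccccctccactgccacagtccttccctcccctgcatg
C3, chr9:2201340-2201589 (GRCr8, minus strand): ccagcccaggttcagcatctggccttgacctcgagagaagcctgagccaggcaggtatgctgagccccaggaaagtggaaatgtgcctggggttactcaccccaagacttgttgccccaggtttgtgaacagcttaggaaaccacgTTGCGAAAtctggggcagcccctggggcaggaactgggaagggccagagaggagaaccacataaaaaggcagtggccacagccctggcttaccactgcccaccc
The 250 bases of C4a held none of the 5 motifs. Of all 33469 promoters in the table, 7.67% held the STAT motif, 8.12% the interferon regulatory factor motif, 9.22% the C/EBP motif, 10.2% the ETS motif and 6.33% the NF-kB motif. A match describes the letters of the window and shows no binding.

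Across the 10 genes, the mean level was lower in the channels labeled ONC than in those labeled CTR for 10 of 10, the median log2 difference being -0.57, against -0.01 over the 16307 genes tested, of which 8575 were lower. By the labels this direction is opposite to the one the study gives for C3, Cfb, C1s, C4a and Serping1. None of the 10 passed limma with Benjamini-Hochberg adjustment over all genes (adjusted p from 0.0979 to 0.508), where 0.264% of all genes were called lower in ONC. At an unadjusted p under 0.05, 6 of 10 were lower, against 9.85% of all genes. The test of the study's methods, on linear values and unadjusted, was under 0.05 for 0 of the 10 and for 2682 of the 16307 genes, counting both directions. The members were picked with results of these data known, so these counts describe the genes and are no test of the group.

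**Figure D1:**
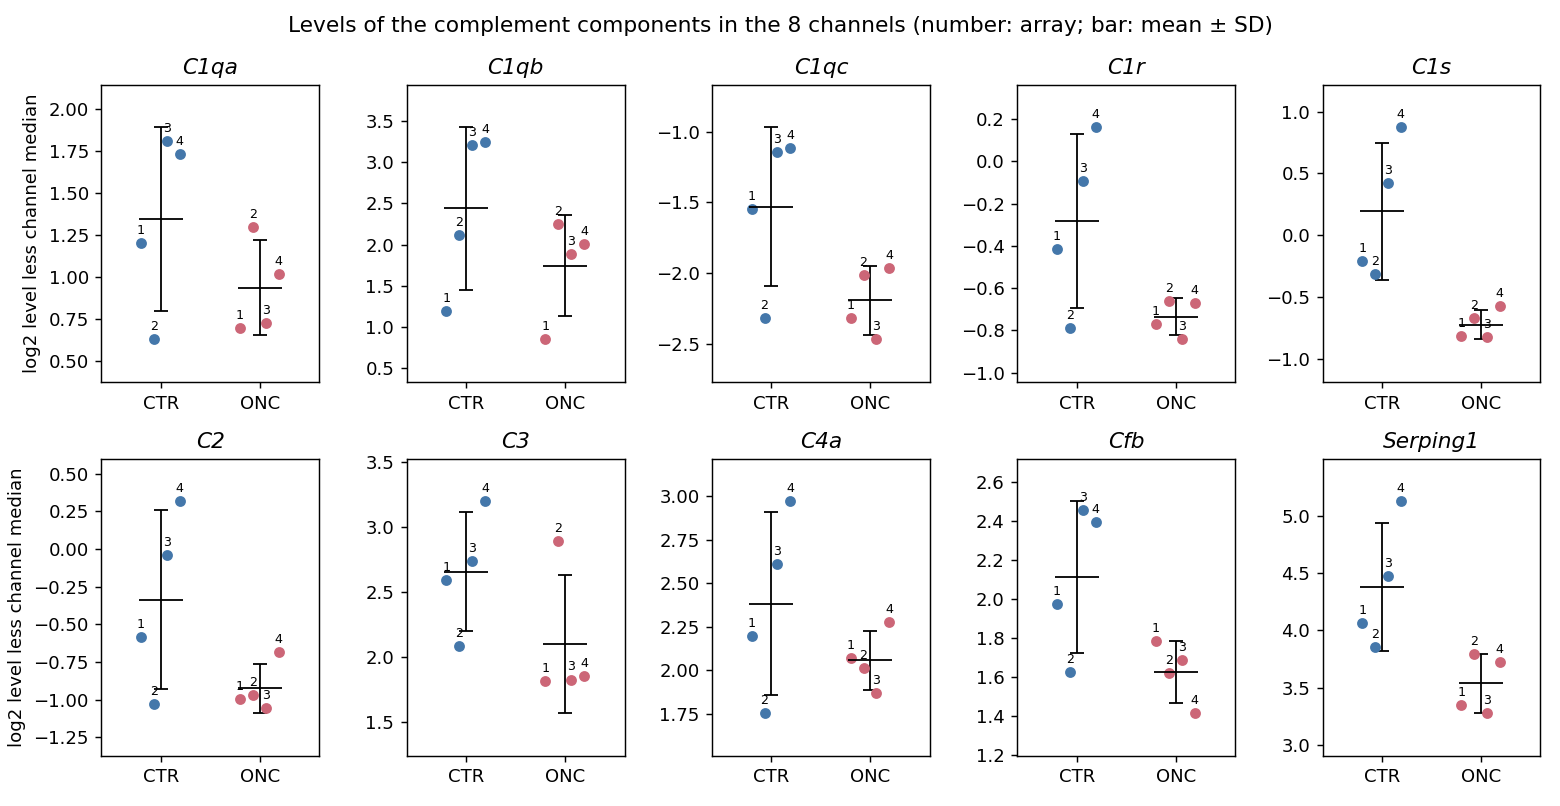
Log2 level of each of the 10 genes, less the median of the channel, in the 4 channels labeled CTR (blue) and the 4 labeled ONC (red). Numbers give the array, and the bars the mean ± SD. The groups are apart only for C1s and Serping1, and CTR3 and CTR4 hold the 2 highest CTR values of every gene.

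The C1q chains, which together form the recognition unit of C1, differed in pattern. The level of C1qa was 1.20, 0.63, 1.81 and 1.73 in the CTR channels of arrays 1 to 4 and 0.70, 1.30, 0.72 and 1.02 in their ONC channels. Its lowest value was in CTR2, and the groups overlapped. Between labels it differed by -0.41 on the log2 scale (SE 0.26, limma adjusted p = 0.447), and the 95% confidence interval included 0. It was -0.65 without CTR2 and -0.25 without CTR3. C1qc followed C1qa closely, with -1.54, -2.32, -1.14 and -1.12 in the CTR channels of arrays 1 to 4 and -2.32, -2.01, -2.47 and -1.96 in their ONC channels. Here CTR2 lay among the ONC values, and the other CTR channels were above them. For C1qc the labels differed by -0.66 (log2, SE 0.26, limma adjusted p = 0.220).

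C1qb had the largest SD within each group of the 10 genes, 0.98 in CTR and 0.62 in ONC. Its level was 1.19, 2.12, 3.21 and 3.25 in the CTR channels of arrays 1 to 4 and 0.85, 2.25, 1.88 and 2.01 in their ONC channels. Both channels of array 1 were the lowest of their group, which was not so for C1qa or C1qc. ONC less CTR was -0.69 (log2) with a standard error of 0.48 (limma adjusted p = 0.486), and the groups overlapped. Leaving out CTR1 gave -1.11 and leaving out ONC1 gave -0.39. The root mean square difference over the 8 channels, each gene less its mean, was 0.55 between C1qa and C1qb and 0.60 between C1qb and C1qc, but 0.17 between C1qa and C1qc.

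C1r and C1s are the proteases of C1, and C1s is the one that cleaves C4 and C2. The level of C1s was -0.21, -0.32, 0.42 and 0.87 in the CTR channels of arrays 1 to 4 and -0.82, -0.67, -0.83 and -0.58 in their ONC channels. All ONC channels were below all CTR channels, and the ONC values lay close together. The mean was 0.19 ± 0.56 (SD, n = 4) in CTR and -0.72 ± 0.12 (SD, n = 4) in ONC, a level 1.89 times as high in CTR, with a 95% interval from 1.29 to 2.75. ONC less CTR was -0.92 (log2, SE 0.24, limma adjusted p = 0.0979), and the ONC channel was the lower on each of the 4 arrays.

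With the array as a replicate block, the same difference of C1s passed the test, at an adjusted p of 0.0443 by limma, and it was the 1 gene of the 10 that did. In this paired fit 4.61% of all genes were called lower in ONC. Over the 19 alternatives the adjusted p of C1s ranged from 0.0171 to 0.415 and its log2 fold change from -1.13 to -0.69.

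C1r was read by a probe printed on 10 spots, which gives its technical error. Within a channel, the SD between these spots was 0.19 to 0.35 on the log2 scale, while the SD between retinas was 0.41 in CTR and 0.09 in ONC. The level of C1r was -0.41, -0.79, -0.09 and 0.16 in the CTR channels of arrays 1 to 4 and -0.77, -0.66, -0.84 and -0.67 in their ONC channels. CTR2 lay among the ONC values, and the other CTR channels were above them. The standard error of the mean of the 10 spots was at most 0.11, less than the log2 fold change of -0.45, whose standard error between retinas was 0.18 (limma adjusted p = 0.237) and which was -0.62 without CTR2 and -0.30 without CTR4.

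C4 and C2 are the substrates of C1s and form the classical C3 convertase. The level at the C4a probe was 2.20, 1.75, 2.61 and 2.97 in the CTR channels of arrays 1 to 4 and 2.07, 2.01, 1.87 and 2.28 in their ONC channels. CTR2 was the lowest of the 8 channels, and ONC4 was above CTR1. C4a had the smallest log2 fold change of the 10 genes, -0.33 (SE 0.23, limma adjusted p = 0.508), with a 95% interval from -0.86 to 0.20. That value rested on single channels, being -0.54 without CTR2 and -0.13 without CTR4.

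C2 had 2 probes, 325 bases apart. At the first, the level was -0.31, -0.77, 0.08 and 0.47 in the CTR channels of arrays 1 to 4 and -0.54, -0.54, -0.69 and -0.35 in their ONC channels, and the labels differed in log2 by -0.40 (SE 0.23, limma adjusted p = 0.401 over all probes). The second read -0.86, -1.29, -0.16 and 0.17, and -1.45, -1.39, -1.43 and -1.02, and the labels differed in log2 by -0.78 (SE 0.29, limma adjusted p = 0.192 over all probes). The probes had the same order of the CTR channels and differed in size, and the difference between them was not tested. Averaged, C2 differed in log2 by -0.59 (SE 0.26, limma adjusted p = 0.268), by -0.82 without CTR2 and by -0.37 without CTR4.

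C3, on which all pathways converge, had a level of 2.59, 2.09, 2.74 and 3.20 in the CTR channels of arrays 1 to 4 and 1.82, 2.89, 1.82 and 1.85 in their ONC channels. ONC1, ONC3 and ONC4 were close together and below every CTR channel, whereas ONC2 was above all CTR channels but CTR4. The labels differed by -0.56 in log2 units (SE 0.29, limma adjusted p = 0.354), with means of 2.65 ± 0.46 (SD, n = 4) in CTR and 2.09 ± 0.53 (SD, n = 4) in ONC. Without ONC2 the difference was -0.82 and without CTR4 -0.38, and the lowest adjusted p of C3 over the alternatives was 0.129.

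Cfb encodes factor B, the protease of the alternative convertase. Its level was 1.97, 1.62, 2.46 and 2.39 in the CTR channels of arrays 1 to 4 and 1.79, 1.62, 1.69 and 1.41 in their ONC channels. CTR2 lay among the ONC values, and ONC4 was the lowest channel. On average ONC less CTR came to -0.49 (log2, SE 0.18, limma adjusted p = 0.207), and the ONC channel was the lower on 4 of 4 arrays, with a difference of -0.01 on array 2.

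Serping1 encodes C1 inhibitor. Its level was 4.06, 3.85, 4.47 and 5.13 in the CTR channels of arrays 1 to 4 and 3.35, 3.80, 3.28 and 3.72 in their ONC channels. The groups did not overlap, but CTR2 and ONC2 were 0.06 apart. The mean was 4.38 ± 0.56 (SD, n = 4) in CTR and 3.54 ± 0.26 (SD, n = 4) in ONC, a level 1.79 times as high in CTR with a 95% interval from 1.19 to 2.70. The difference between labels was -0.84 (log2, SE 0.26, limma adjusted p = 0.141). Groups that did not overlap, with ONC lower, were found for 2 of the 10 genes and for 6.92% of all genes.

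Within arrays, which share a hybridization, array 2 stood apart. The ONC channel was the lower for 10 of 10 genes on arrays 1, 3 and 4. On array 2 it was the higher for 7 of 10, by 0.80 for C3, 0.67 for C1qa and 0.31 for C1qc, and by 0.06 to 0.26 for C1qb, C1r, C2 and C4a. On arrays 3 and 4 the differences of C1s were -1.25 and -1.45 and those of Serping1 -1.19 and -1.41, against -0.36 and -0.06 on array 2. Array 2 also held RGC markers at a high level in both channels, and array 4 at a low level in both. A lower ONC channel on 4 of 4 arrays was found for 3 of the 10 genes and for 21.2% of all genes.

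**Figure D2:**
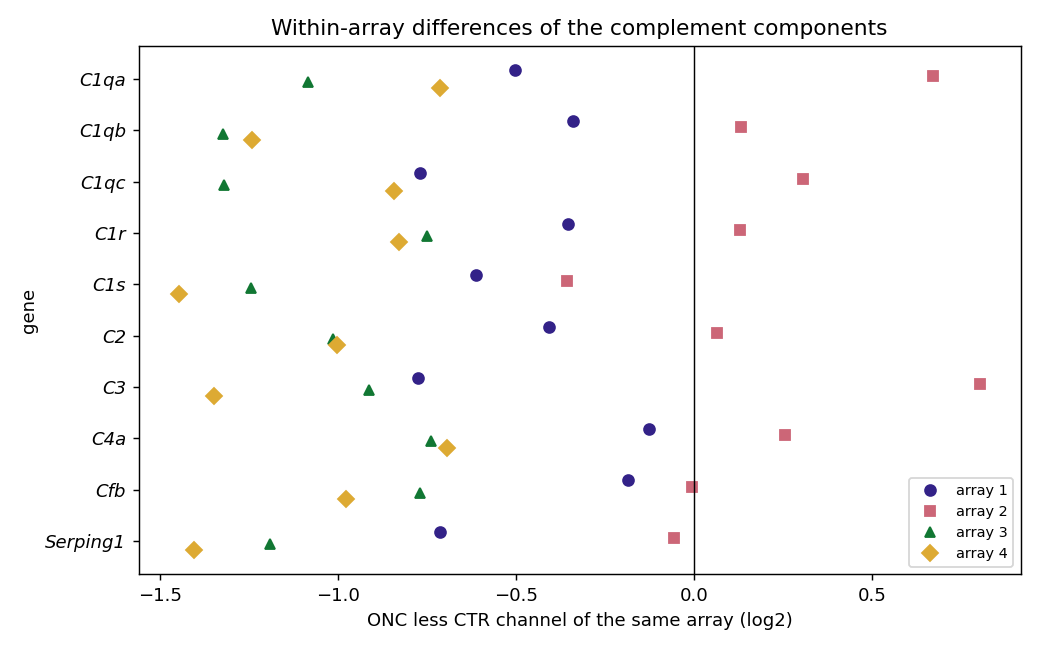
Difference between the ONC and the CTR channel of the same array on the log2 scale (horizontal) for each of the 10 genes (vertical), with a symbol per array. Array 2 (squares) lies above 0 for 7 genes and the other arrays below 0 for all 10.

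The channels whose RGC markers fit their labels were CTR2 and ONC4. Between these 2 channels, 1 of each label and so without a test, ONC4 was lower than CTR2 for C1s (-0.26), C3 (-0.24), Cfb (-0.21), Serping1 (-0.13) and C1qb (-0.11), and higher for C4a (0.52), C1qa (0.39), C1qc (0.36), C2 (0.35) and C1r (0.12). The direction over all 8 channels was thus not that of these 2 channels for 5 of 10 genes. In the 4 channels whose dye both sources give alike, the log2 fold change was below 0 for 10 of 10 genes, with a median of -0.67 and a limma adjusted p of 0.415 or more for each.

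Levels of marker lists were set beside those of the complement genes. The median of the 10 genes, each less its mean, was 0.08, -0.28, 0.59 and 0.79 in the CTR channels of arrays 1 to 4 and -0.45, -0.16, -0.42 and -0.14 in their ONC channels. For 15 of 15 microglia and macrophage markers it was 0.20, -0.37, 0.42 and 0.43, and -0.22, -0.11, -0.28 and 0.02. For both lists CTR3 and CTR4 were the highest channels, as also for the lists of reactive glia, interferon response, MHC class II and astrocyte genes. Of the 15 markers 14 were lower in ONC, the median log2 difference being -0.29, and none was called by limma. At an unadjusted p under 0.05, Aif1 and P2ry12 were lower, 2 of 15 against 9.85% of all genes, and Cx3cr1 was higher. With median scaling in place of loess, 10 of the 15 were lower, the median being -0.20, while 10 of 10 complement genes were lower, at -0.54. Without CTR2 the microglia median was -0.44 and without CTR4 -0.17. In bulk retina, fewer cells of a type and less RNA per cell cannot be told apart, and the part of microglia in the complement levels was not tested.

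The microglia list summed to 5.10, 4.67, 5.30 and 5.34 in the CTR channels of arrays 1 to 4 and to 4.76, 4.88, 4.73 and 5.01 in their ONC channels (log2 of the summed linear levels). Aif1, which encodes the microglial protein Iba1, differed by -0.59 (SE 0.25, limma adjusted p = 0.261). The 1 marker that was higher in ONC was Cx3cr1, the fractalkine receptor, at 0.39 (limma adjusted p = 0.192), named, as P2ry12 was, after its value was seen.

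Genes of reactive glia and the acute phase were lower in ONC for 10 of 10 measured genes, with a median of -0.62, and for 9 of 10 without loess. None of the 10 was called by limma, and Vim, Cp and Chi3l1 were lower at an unadjusted p under 0.05, 3 of 10 against 9.85% of all genes. The median was -0.35 without CTR4, and 8 of 10 were lower without ONC2. Their median level was -0.13, -0.26, 0.61 and 0.85 in the CTR channels of arrays 1 to 4 and -0.19, -0.54, -0.17 and 0.01 in their ONC channels, and their sum was 4.52, 4.49, 5.24 and 5.49, and 4.44, 4.18, 4.39 and 4.53. Gfap, the intermediate filament of astrocytes and stressed Muller glia, differed in log2 by -1.15 with a standard error of 0.54 (limma adjusted p = 0.296), and by -0.75 without ONC2. Vim, the brightest gene of the list and also a Muller marker, had -0.41 (SE 0.09, limma adjusted p = 0.0799). Vim was called lower with the replicate block (limma adjusted p = 0.0409) and without loess (0.0169), with a range of 0.0146 to 0.441 over the alternatives. Of the list, Osmr did not pass the filter and Edn2 was not found by name. Of 10 Muller glia genes, 7 were lower, with a median of -0.21, but 8 without loess, with a median of -0.40, and 6 from the processed signals, with -0.12. None of the 10 was called by limma without the block. At an unadjusted p under 0.05, 4 of 10 were lower, against 9.85% of all genes. In the paired fit 3 of 10 were called lower, Vim among them, against 4.61% of all genes. Glul, glutamine synthetase, was higher by 0.58 (SE 0.26, limma adjusted p = 0.271) and by 0.29 without CTR4, and the brightest, Dkk3, had -0.19 (limma adjusted p = 0.477). Without loess Dkk3 was at -0.62 and called lower (limma adjusted p = 0.0147), with a range of 0.00891 to 0.990 over the alternatives and a sign that changed in 2 of them.

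Interferon response genes were lower in ONC for 12 of 12, with a median of -0.31, and MHC class II genes for 7 of 7, with a median of -0.36. With median scaling in place of loess these counts were 8 of 12 (median -0.22) and 5 of 7 (median -0.07). None of these genes was called by limma without the block. In the paired fit 1 of 12 interferon genes and 2 of 7 class II genes were called lower, against 4.61% of all genes. Without CTR4 the interferon median was -0.11, with 9 of 12 lower, and without CTR3 that of class II genes was -0.08, with 5 of 7 lower. In both lists CTR2 and ONC2 were the lowest channels, at -0.60 and -0.59 for interferon genes and -0.46 and -0.45 for class II genes, and ONC4 was above the other ONC channels, at 0.18 and 0.25. Gbp2, the brightest of the interferon list, differed in log2 by -0.23 (SE 0.42, limma adjusted p = 0.824). Cd74, the class II invariant chain and the brightest of its list, had -0.58 (SE 0.84, limma adjusted p = 0.771), which was -1.48 without CTR2 and -0.08 without CTR3. The study reports Cd74 higher after the crush, by its arrays and by PCR. Of astrocyte genes, 3 of 3 were lower, with a median of -0.34, the same as that of the brightest, S100b, and without loess 2 of 3, with a median of -0.22.

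Lists of lens, pigment epithelium, blood, vessels and photoreceptors differed in direction. The 7 lens genes were all lower in ONC, with a median of -0.39, and their level was highest in CTR2, at 1.22. Without CTR2, 5 of the 7 were lower, with a median of -0.08 and Crygs at -0.05. The brightest, Crygs, differed in log2 by -0.41 and Cryaa -0.95 (limma adjusted p = 0.620 and 0.134). Of pigment epithelium genes 4 of 4 were higher, with a median of 0.19 (0.06 and 2 of 4 without CTR3 or without ONC1), Rpe65 at 0.79 and Ttr at 0.11 (-0.16 without loess). Of blood and plasma genes 3 of 3 were higher, with a median of 0.22 (0.05 without CTR2), Hba1 at 0.38 and Hbb at 0.22, while Alb, Fga and Fgb, made in liver, were dim and did not pass the filter. Of 8 vascular genes 5 were higher, with a median of 0.08 (-0.02 without CTR2), Kdr at 0.12 (-0.25 without loess) and Pecam1 at 0.18. Of 10 photoreceptor genes 7 were lower, with a median of -0.26, and without loess 10, with a median of -0.40. In the paired fit 2 of 10 were called lower, against 4.61% of all genes. The part of these cells in the complement levels was not tested.

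**Figure D3:**
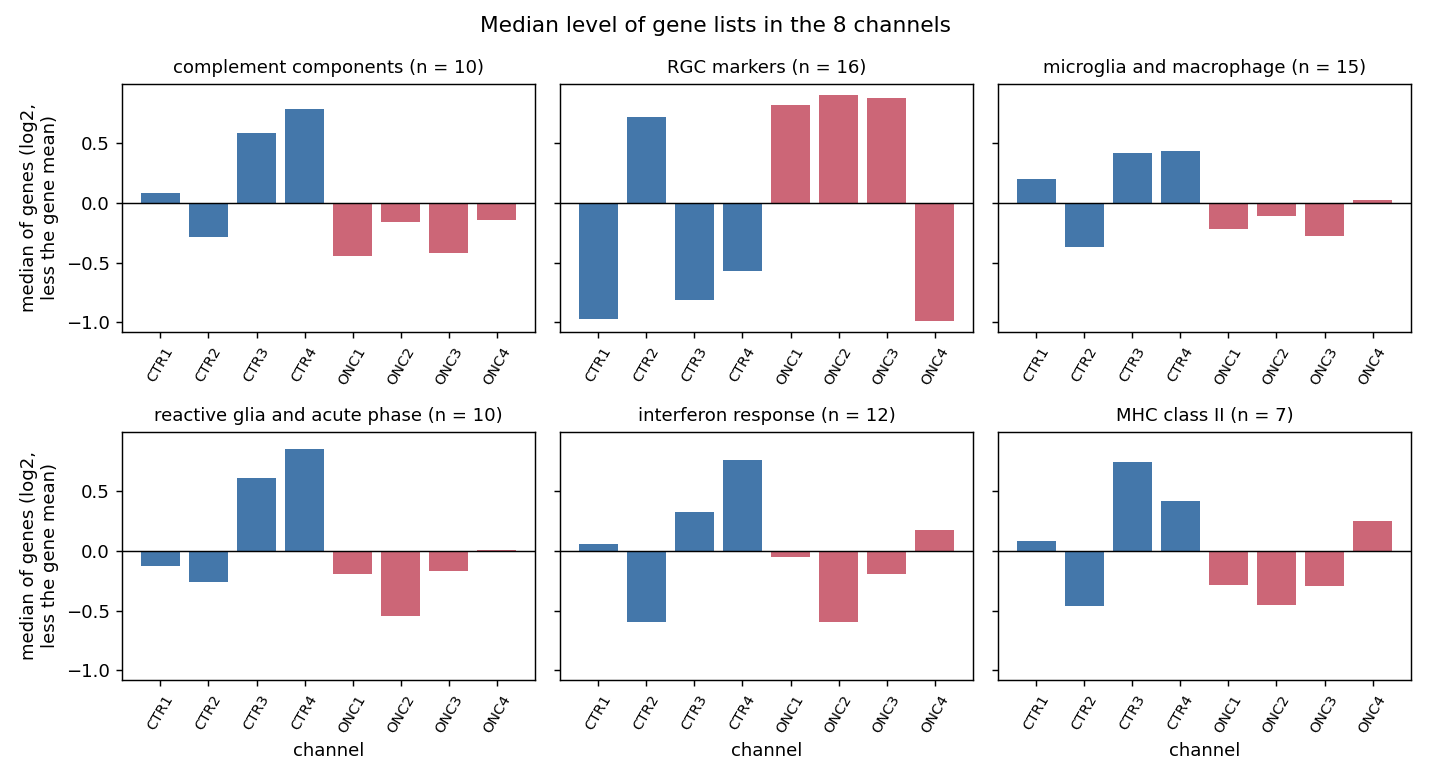
Median level of the genes of 6 lists in each channel, relative to each gene's average channel, on the log2 scale. The complement, microglia, reactive glia, interferon and class II lists are all highest in CTR3 and CTR4, whereas RGC markers are high in CTR2 and ONC1 to ONC3.

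The other complement genes, from lists of the lectin pathway, the alternative pathway, terminal components, regulators and receptors, gave a mixed picture. Of 49 such genes 45 were on the array by name and 19 passed the filter; 12 were lower in ONC and 7 higher, the median log2 difference being -0.20, but with median scaling in place of loess 9 of 19 were lower and the median was 0.01. Without CTR4 the median was -0.10. None was called by limma without the block. At an unadjusted p under 0.05, A2m, Clu, Itgb2 and Sez6 were lower, 4 of 19 against 9.85% of all genes, and C4bpb was higher. In the paired fit 3 of 19 were called lower, against 4.61% of all genes. The lowest were A2m, which encodes a broad protease inhibitor, at -0.83 (SE 0.21, limma adjusted p = 0.0886), and Itgb2, the shared chain of complement receptor 3, at -0.80 (SE 0.25, limma adjusted p = 0.142), which was -0.49 without loess (limma adjusted p = 0.206, range 0.0341 to 0.551). The highest were Sez6l2 at 0.25 and C4bpb, a chain of the C4b-binding protein, at 0.22 (limma adjusted p = 0.446 and 0.263), but Sez6l2 was at 0.13 without CTR4, below C4bpb at 0.26.

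Clu encodes clusterin, which binds terminal complexes. Its level was 5.85, 5.34, 6.37 and 6.50 in the CTR channels of arrays 1 to 4 and 5.26, 5.12, 5.25 and 5.52 in their ONC channels, and the labels differed in log2 by -0.73 (SE 0.23, limma adjusted p = 0.150). CTR2 was below ONC4, and the ONC channel was the lower on 4 of 4 arrays. By the labels this direction is opposite to the one the study gives for Clu. With the replicate block, A2m, Itgb2 and Clu had adjusted p of 0.0336, 0.0455 and 0.0449 by limma. Vtn, which encodes vitronectin, was left out because its spot was marked as uneven in both channels of array 4, and C8g for the same reason in array 1. F2 was marked in CTR4 and was also dim.

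By list, 4 of 5 fluid-phase regulators that passed were lower in ONC (median log2 fold change -0.28, but -0.61 from the processed signals), 2 of 5 membrane regulators (0.04, but -0.07 from the processed signals) and 4 of 6 receptors (-0.17, but -0.04 without CTR4). Without CTR2, CTR3 or ONC4 the median of the membrane regulators was below 0. In the lectin pathway Masp1 alone passed, at -0.08 (0.01 without loess and 0.02 from the processed signals). In the alternative pathway Cfd, factor D, was at -0.37 and Cfp, properdin, at 0.08, with a median of -0.15 (0.03 without CTR4). Without loess Cfd and Cfp were higher in ONC, with a median of 0.24, and from the processed signals lower, with -0.24. Of 9 related proteins, such as those of the C1q-like family, 6 were lower, with a median of -0.09 (-0.16 without CTR2 and -0.04 without CTR3), and C1ql1 was called lower in the paired fit, at -0.51 (limma adjusted p = 0.0428). Among the receptors that passed, Cd93, a receptor once linked to C1q, differed by -0.57 and Itgam, the other chain of complement receptor 3, by -0.29. Itgam was at 0.0069 without loess, -0.16 without CTR4 and -0.44 without CTR2. C1qbp, Calr and Lrp1, which encode proteins that bind C1q or its tail, differed by 0.06, -0.04 and 0.08, within their standard errors. The receptors of the cleaved fragments, C3ar1, C5ar1 and C5ar2, were dim, with foreground under 2 times background in at least 1 channel. So were 5 of the 6 terminal components found, C5, C6, C8a, C8b and C9, and 7 of 8 lectin pathway genes. No terminal component could thus be measured in all channels.

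**Figure D4:**
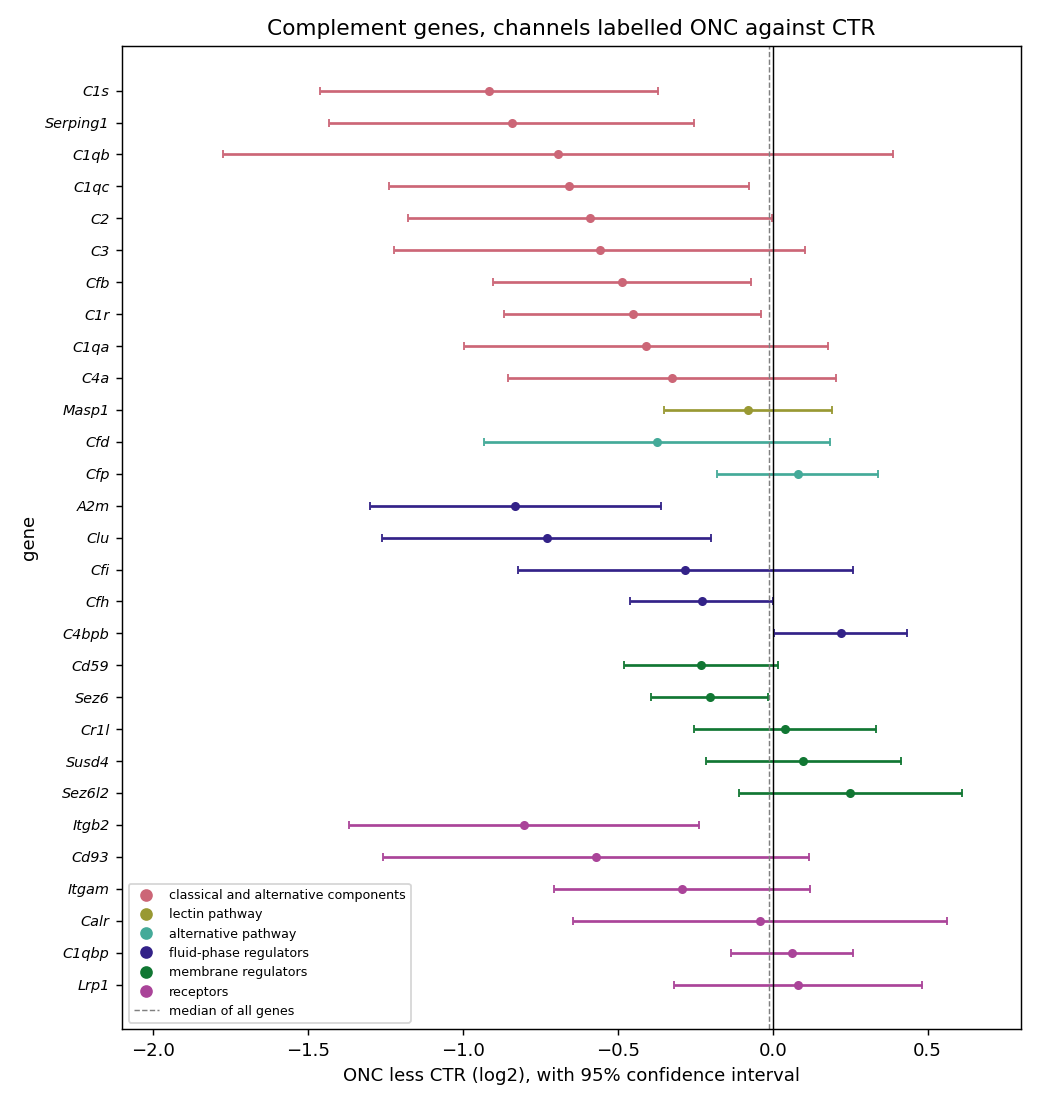
Log2 fold change of ONC against CTR channels (horizontal) with its 95% confidence interval for the 10 genes and 19 other complement genes that passed the filter, colored by list. The dashed line is the median of all genes, -0.01; the 10 genes lie from -0.92 to -0.33.

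The profiles over the 8 channels, each gene less its mean, were set against those of all other genes by their root mean square difference. Of all genes, the closest to C1s was Serping1 and the closest to Serping1 was C1s, at 0.12, followed for both by A2m, at 0.17, with Sbno2 at 0.15 between them for C1s. The closest to C1qc was Aif1 (0.13), then Tspo and Tbxas1 (0.15 each). C1qa lay closest to Bdh1 (0.11), Tyrobp, a microglial adaptor (0.12), and Cmtm7 (0.14). C1r lay closest to Ctss, a lysosomal protease of microglia, at 0.06, then Abi3 and Gpr4 (0.08 each).

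For C2 the closest were MGC112715 (0.07), Tmem176a (0.10) and Tspo (0.11), and for C4a they were Acp5 (0.07), Hhex (0.08) and Nod1 (0.09). Cfb lay closest to Hils1 (0.08), Trpv4 (0.09) and Ptpn6 (0.10). C3, with its high value in ONC2, was less close to any gene, with Cd93 at 0.17, Fcgr3a at 0.22 and Bdh1 at 0.23. C1qb had no near profile, with Mlc1 at 0.29, Lrrc14 at 0.36 and Slc25a42 at 0.37. Likeness over 8 channels is a description.

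**Figure D5:**
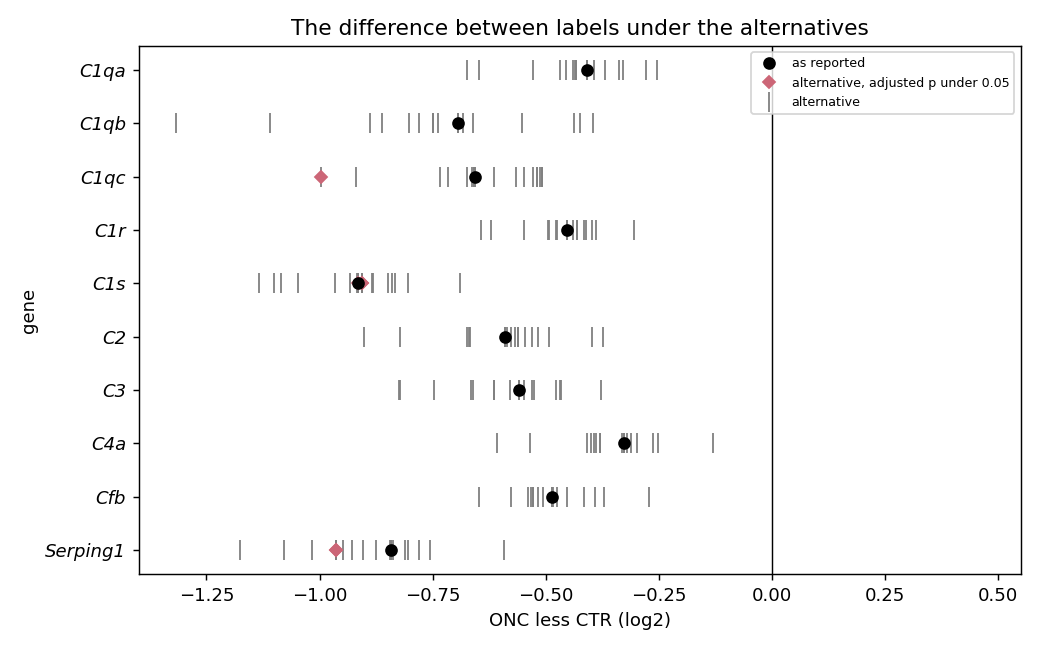
Log2 fold change of each gene as reported (black) and under each of 19 alternatives of processing, fit or channels (gray), with those at an adjusted p under 0.05 as diamonds. All values lie below 0, from -1.32 for C1qb to -0.13 for C4a.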

How the data were processed

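Per the file headers, the deposited files hold spot intensity read by Agilent Feature Extraction 12.0.3.1 (the labels name 11.1.19.1) from 4 two-color arrays, uncorrected except for the processed signal. Control spots, spots marked as uneven, and spots whose foreground was under 2 times background in at least 1 of 8 channels were dropped, which kept 27371 of 42877 spots and 16307 genes. Background was subtracted, channels were normalized by loess within each array (span 0.3) and centered on their median, and spots were averaged to probes and genes. The loess step stands in for the in-house method of the authors. limma 3.58.1 (R 4.3.3) compared all genes between labels without a block, two-sided, with Benjamini-Hochberg adjustment and a threshold of 0.05; the fit was tested on simulated data. All members passed the filter, so the fit planned for failing members was not needed. The number of arrays limits the precision.

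Labels put retinas of the same number on the same array, and the array was used as a replicate block in a paired fit. Deviations from the group means correlated at 0.15, 0.55, 0.40 and 0.49 between the 2 channels of arrays 1 to 4.

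Members and lists were chosen with earlier results of these data known. Besides the members, the genes named were Clu and Vtn, the 2 highest and 2 lowest other complement genes, the receptors that passed, the first and the brightest gene of each cell list, and the 3 closest profiles of each member. Masp1, Cfd, Cfp, Cx3cr1, P2ry12, Sez6, Cp, Chi3l1 and C1ql1 were added after their values were seen. Some genes that this rule names are not reported here.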

Additional observations from a re-analysis of the deposited data

Results flagged for a closer look

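C3 in the channel labeled ONC2 was 2.89, against 1.82, 1.82 and 1.85 in ONC1, ONC3 and ONC4, a gap of 0.97 of the range of the group, above the 95% critical value of the test of Dixon for 4 samples. Of 20 groups of 4 channels tested, for 10 genes and 2 labels, this was the 1 beyond that value, and chance gives about 1 in 20.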

How the results depend on the processing

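The log2 fold change of each of the 10 complement genes kept its sign under all 19 alternatives, and their median, -0.57, ranged from -0.77 to -0.38 with a channel left out. The number of genes called did not hold. It was 81 (43 lower), but 14 with normexp background correction, 3194 with median scaling without loess, 412 with Aquantile normalization, 21 with the processed signals, 0 with normexp and without the filter on dim spots, where 2 choices changed at once, 123 with spots well above background, 1254 with the replicate block, 124 with the brightest probe and 0 in the channels whose dye both sources give alike. With a channel left out it was 0 to 38, 38 without ONC2 and 0 without each of the other 7. The methods' t-test with its fold-change criterion was met by 510 of the 16307 genes, counting both directions, and by 0 of the 10. Without that criterion and unadjusted, the t-test was under 0.05 for 2682 of the 16307 genes and 0 of the 10. After Benjamini-Hochberg 0 genes passed it. Of genes called, 46.9% were higher in ONC, but 71.0% without loess. The cause was not tested.

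Of the 10 genes, 0 were called as reported and with each channel left out, 1 with the replicate block (C1s) and 2 without loess (C1s and Serping1, adjusted p = 0.0330 and 0.0372 by limma). Of all genes, 4.61% were called lower in ONC with the replicate block and 5.68% without loess. Over all alternatives, the adjusted p of Serping1 ranged from 0.0243 to 0.415. The pairing changed no other call among the 10. Of the other named genes, it made Clu, A2m, Itgb2, Vim, Sbno2 and C1ql1 called lower (Itgb2 not so when loess was left out as well). Median scaling without loess did so for Clu, A2m, Vim, Sbno2, Dkk3 and Cryaa. Alternatives chosen after seeing the data called 5371 genes and 2 of the 10 without loess and with the replicate block. There 10.3% of all genes were called lower in ONC. CTR2 and ONC4 were picked by their RGC markers, so that calls without them support nothing. Leaving both out called 415 genes and 1 of the 10, C1qc (adjusted p = 0.0375 by limma, range 0.0375 to 0.604). In that setting 1.19% of all genes were called lower in ONC.

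Of 58 named genes, the 10 complement components included, 10 changed sign, none of them among these components. The genes added after their values were seen are not among the 58, and of the added genes Masp1, Cfd and Cfp changed sign too. Without loess, with and without the block, Itgam was 0.0069, C1qbp -0.12, Kdr -0.25, Ttr -0.16 and Hhex 0.041. With the processed signals, C1qbp was -0.027, Calr 0.11 and Dkk3 0.0037. In the channels of equal dye, Cd74 was 0.026, Dkk3 0.065 and Gbp2 0.47. Without CTR2 and ONC4, Calr was 0.0044, Lrp1 -0.032, Kdr -0.064 and Ttr -0.071. With a channel left out, Calr ranged from -0.26 to 0.15, Gbp2 from -0.53 to 0.087, Ttr from -0.022 to 0.47 and Lrp1 from -0.0014 to 0.25. The median foreground of the channels ran from 218 in ONC4 to 626 in CTR2, and the part of signal in these sign changes was not tested.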
